A study of Homo sapiens with 9 samples.

Results

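A set of 10 genes that tell germinal-centre B-cell-like (GCB) from activated B-cell-like (ABC) diffuse large B-cell lymphoma (DLBCL) was followed in RIVA cells expressing mutant BCL10. They were found by symbol among the 60656 genes of the deposited count table, and all 10 were listed. The 6 GCB markers were LMO2, MYBL1, MME, ITPKB, SERPINA9 and ASB13, and the 4 ABC markers were LIMD1, CCND2, CYB5R2 and ENTPD1. RIVA is an established ABC-DLBCL cell line, and its own BCL10 gene remained in all groups. By the study's account the line derives from a lymphoma with a BCL6 rearrangement and an activating NOTCH2 mutation. The cells were infected with pLVX-TetOne lentivirus, in which doxycycline switches on the inserted gene, and were selected with puromycin. One group carried the empty vector (genotype labelled BCL10 wild type), one carried BCL10 S136X, a truncation, and one carried BCL10 R58Q, a missense mutant. All 3 groups received doxycycline for 24 h at 200 ng/mL by the treatment protocol (the sample characteristics list the same number per microlitre), and RNA from 3 replicates per group was sequenced. A single cell line was used, without a wild-type BCL10 insert and without uninduced cells among these 9 libraries.

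Cell of origin divides DLBCL by the normal B cell that the tumour resembles. GCB tumours keep the expression programme of B cells cycling through the germinal centre, while ABC tumours resemble B cells arrested on the way to plasma cells and depend on chronic NF-kB signalling, in which BCL10 acts as an adaptor protein. Diagnostic expression panels score such genes together, so that a tumour is classed by the balance between both sides and not by one marker.

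Total counts per library ranged from 28047713 to 33122267, with a median of 32185418. Levels are CPM, that is, counts relative to the TMM-adjusted size of the library, a count of 3 corresponding to between 0.0906 and 0.107 CPM. BCL10, which reads from construct and endogenous gene together, had 885 to 1268 counts in the vector libraries, 9838 to 14293 in S136X and 10117 to 10596 in R58Q. The B-cell markers MS4A1, CD79A, CD79B, PAX5 and CD22 were present in every library, from CD79B with at least 2830 counts to PAX5 with at least 30830. The names of the deposited columns carry one date for vector and S136X and a later one for R58Q, so the date and the R58Q construct cannot be told apart in any comparison below that involves R58Q.

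Before any comparison, the vector cells showed that the RIVA background expressed markers of both classes. Per kilobase of exon, the vector mean was highest for the ABC marker LIMD1 (7.39 CPM per kb ± 0.618, SD, n = 3), followed by the ABC marker CYB5R2 (5.35 ± 0.153 CPM per kb). The GCB markers ITPKB (4.99 ± 0.279 CPM per kb), MYBL1 (4.45 ± 0.968) and ASB13 (3.79 ± 1.02) came next, together with the ABC marker ENTPD1 (3.59 ± 0.407). Neighbours among these last 4 genes overlapped in their vector libraries, so the order of neighbours is not resolved. ITPKB (4.67 to 5.17 CPM per kb) was nevertheless above ENTPD1 (3.14 to 3.93 CPM per kb) in every vector library. The range of MYBL1 (3.37 to 5.24 CPM per kb) also reached that of CYB5R2 (5.22 to 5.52 CPM per kb). MME followed at 2.27 ± 0.607 CPM per kb, below the range of ENTPD1. SERPINA9 (0.136 ± 0.0352 CPM per kb), LMO2 (0.0611 ± 0.0159) and CCND2 lay far lower. Exon lengths were taken over all annotated exons of a gene, so a level per kilobase depends on which transcripts a cell uses.

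LMO2, SERPINA9 and CCND2 were scarcely detected in any group. LMO2 (ENSG00000135363.12, chr11:33858576-33892076 on GRCh38), a transcriptional adaptor whose protein is a standard germinal-centre stain, was covered by 5, 8 and 6 reads in vector (replicates 1, 2 and 3), by 0, 7 and 5 in S136X and by 2, 1 and 8 in R58Q. SERPINA9 (ENSG00000170054.16, chr14:94462717-94479689), the serine protease inhibitor named centerin, had 13, 8 and 14 counts in vector, 9, 8 and 15 in S136X and 10, 16 and 10 in R58Q. The ABC marker CCND2 (ENSG00000118971.9, chr12:4269771-4305353), which encodes the G1 cyclin D2, had at most 1 count in any library. Groups overlapped for all 3 genes. LMO2 and CCND2 were removed by the filter on low counts. Without the filter LMO2 had a log2 fold change of -0.50 in S136X (standard error 0.688, edgeR adjusted p = 0.726) and -0.65 in R58Q (standard error 0.672, edgeR adjusted p = 0.608), and a fold for CCND2 is not given at these counts. A difference in either gene was not detectable at this depth. SERPINA9 was tested against vector only, with a log2 fold change of 0.04 in S136X (standard error 0.407, adjusted p = 0.964) and 0.16 in R58Q (standard error 0.367, adjusted p = 0.781), tested with edgeR. Its 95% intervals, -0.89 to 0.96 and -0.68 to 1.003, include 1.5-fold changes in either direction.

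Of the 10 markers, 8 were therefore tested in each mutant against vector. The quasi-likelihood test of edgeR was used, with p adjusted by Benjamini-Hochberg over every gene tested, and a gene was called where the adjusted p was below 0.05 and the change reached 1.5-fold. By this rule 3 of the 8 were called in S136X, where 3.87% of all tested genes were called, and 3 of the 8 in R58Q, where 7.63% were called. CYB5R2 and ENTPD1 rose and MME fell, in each mutant. Among all tested genes, 2.05% were called higher and 1.82% lower in S136X, and 4.09% higher and 3.54% lower in R58Q. The markers and the gene lists below were chosen with earlier results of these data known. Counts set beside the share over all genes, here and below, are therefore descriptive and were not tested. Both comparisons used the same 3 vector libraries, so they are not separate evidence on the vector level.

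**Figure D1:**
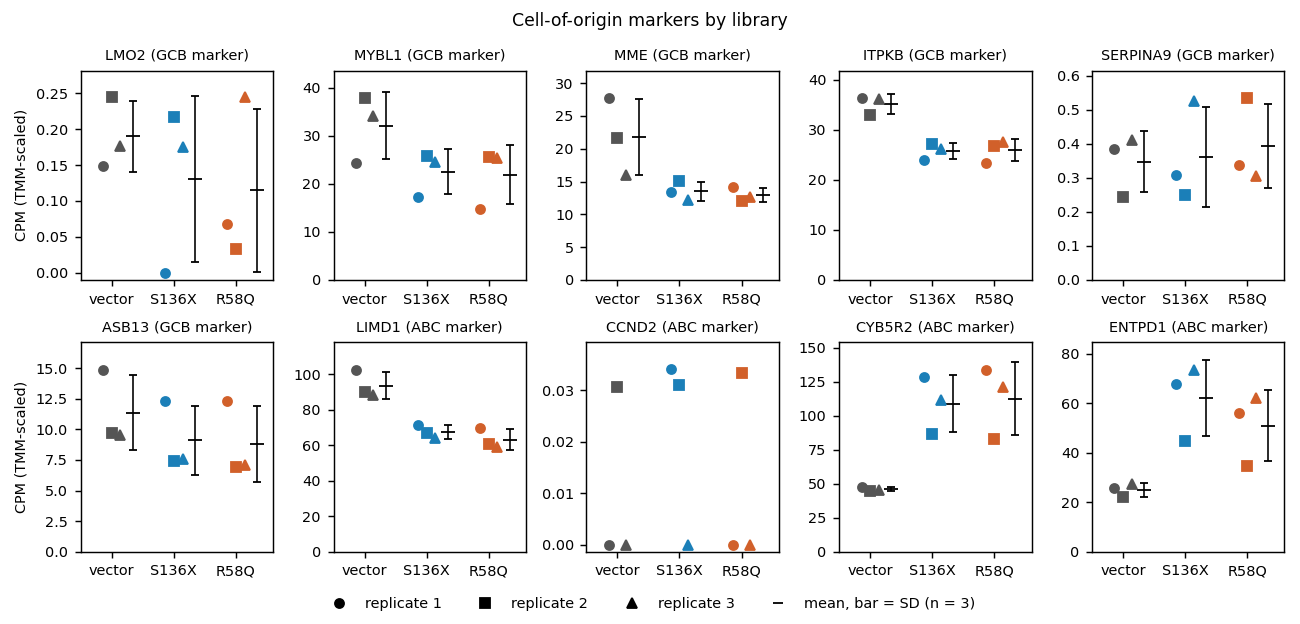
Level of each marker in every library (y axis, CPM with TMM scaling, a separate linear scale per panel; x axis, group). Symbols mark the replicate number and the bar the mean with its SD (n = 3, not drawn for CCND2, which had at most 1 count). All 6 mutant libraries lie above the vector libraries for CYB5R2 and ENTPD1 and below them for LIMD1, ITPKB and MME, while the groups overlap for the remaining 5 genes.

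CYB5R2 (ENSG00000166394.15, chr11:7665100-7677222), a member of the cytochrome b5 reductase family, was the ABC marker with the steadiest vector level. It stood at 47.4, 44.9 and 45.6 CPM in vector replicates 1 to 3, at 128.3, 86.5 and 111.8 CPM in S136X and at 133.9, 82.9 and 121.1 CPM in R58Q. The lowest mutant library, R58Q replicate 2, was still well above the highest vector library. Against vector this was a log2 fold change of 1.24 in S136X (2.37-fold, standard error 0.127, adjusted p = 0.000975) and 1.29 in R58Q (2.45-fold, standard error 0.155, adjusted p = 0.00139; edgeR). Replicate 2 was the lowest of its group in S136X and in R58Q, and also in vector.

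ENTPD1 (ENSG00000138185.20, chr10:95711779-95877266) encodes CD39, the cell-surface enzyme that degrades extracellular ATP and ADP on the way to adenosine. Its levels were 25.8, 21.9 and 27.4 CPM in vector replicates 1 to 3, 67.9, 44.8 and 73.5 CPM in S136X and 56.1, 34.5 and 62.2 CPM in R58Q. As with CYB5R2, no mutant library overlapped a vector library and replicate 2 was the lowest of each group. ENTPD1 thus had a log2 fold change of 1.31 in S136X (2.48-fold, standard error 0.174, adjusted p = 0.00345) and 1.02 in R58Q (2.03-fold, standard error 0.199, adjusted p = 0.0103; edgeR). Without vector replicate 2 the R58Q value was 0.94, with an edgeR adjusted p of 0.0527, and the call was lost. Leaving out this library also lowered the number of genes called in R58Q over all genes from 1178 to 719. ENTPD1 overlaps the antisense gene ENTPD1-AS1, which had 685 to 911 counts per library. Whether counting used strand is not given in the sources used here, and without it reads from the 2 genes cannot be told apart. ENTPD1-AS1 itself had log2 fold changes of 0.13 in S136X (adjusted p = 0.348) and 0.01 in R58Q (adjusted p = 0.931, both from edgeR).

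The ABC markers did not all move one way. LIMD1 (ENSG00000144791.10, chr3:45555394-45686341), a LIM-domain scaffold of the Ajuba family that acts in Hippo and microRNA pathways, was lower in both mutants. It measured 102.6, 89.9 and 88.3 CPM in vector replicates 1 to 3, 71.4, 66.9 and 63.9 CPM in S136X and 69.9, 60.5 and 59.2 CPM in R58Q. Every mutant library was below every vector library. Its log2 fold change was -0.47 in S136X (standard error 0.0768, adjusted p = 0.00765) and -0.57 in R58Q (standard error 0.0868, adjusted p = 0.00382; edgeR), a 1.39-fold and a 1.48-fold lower level, both short of 1.5-fold. In R58Q it passed 1.5-fold when libraries were scaled by the upper quartile (-0.63) or by total counts (-0.63). LIMD1-AS1, which overlaps it, had 16 to 57 counts per library.

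Among the GCB markers, MME (ENSG00000196549.12, chr3:155024124-155183704) was the one called. MME encodes CD10, the cell-surface metalloprotease neprilysin, which is the germinal-centre marker of routine immunohistochemistry. Its levels were 27.8, 21.6 and 16.1 CPM in vector replicates 1 to 3, 13.3, 15.04 and 12.2 CPM in S136X and 14.1, 12.1 and 12.6 CPM in R58Q. The vector libraries were spread widely, and vector replicate 3 was only a little above S136X replicate 2, without overlap. Against vector MME had a log2 fold change of -0.69 in S136X (1.61-fold lower, standard error 0.184, adjusted p = 0.0478) and -0.75 in R58Q (1.69-fold lower, standard error 0.182, adjusted p = 0.0225; edgeR). Both calls lay near the threshold. The size of the change depended on vector replicate 1, the highest library. Without vector replicate 1 the log2 fold change was -0.47 in S136X (adjusted p = 0.0966) and -0.53 in R58Q (adjusted p = 0.044, under 1.5-fold; edgeR). The S136X call was also lost, with log2 fold changes of -0.61 to -0.76, without vector replicate 2 (adjusted p = 0.147), without S136X replicate 1, 2 or 3 (0.0723, 0.0757 and 0.145, adjusted p from edgeR) and with limma-voom (adjusted p = 0.0708). The R58Q call was lost, at log2 fold changes of -0.76, -0.71 and -0.73, without vector replicate 2 or R58Q replicate 2 or 3 (adjusted p = 0.078, 0.0644 and 0.073 in edgeR). Of 15 alternative fits, the call held in 8 in S136X and in 11 in R58Q. Among these was the fit with the replicate number as a block, described below (-0.67 and -0.73, edgeR adjusted p = 0.0032 and 0.0016).

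ITPKB (ENSG00000143772.9, chr1:226631690-226739323) encodes the inositol-trisphosphate 3-kinase B, which limits calcium and AKT signals downstream of the antigen receptor. It stood at 36.4, 32.9 and 36.1 CPM in vector replicates 1 to 3, at 24.0, 27.1 and 26.2 CPM in S136X and at 23.4, 26.8 and 27.7 CPM in R58Q. The mutant libraries formed a narrow range entirely below the vector range. With a log2 fold change of -0.45 in S136X (standard error 0.0803, adjusted p = 0.0116) and -0.44 in R58Q (standard error 0.0853, adjusted p = 0.0103; edgeR), it passed the test on p and stayed under 1.5-fold. Without vector replicate 3 the S136X adjusted p was 0.0505 (edgeR).

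MYBL1 and ASB13 showed differences between replicate numbers at least as large as those between groups. MYBL1 (ENSG00000185697.16, chr8:66562175-66614247), the MYB-family transcription factor A-MYB of germinal-centre centroblasts, had 24.4, 37.9 and 34.2 CPM in vector replicates 1 to 3, 17.2, 25.8 and 24.7 CPM in S136X and 14.8, 25.5 and 25.4 CPM in R58Q. Replicate 1 was the lowest library of each group, and the mutant ranges overlapped that of vector. The log2 fold change was -0.51 in S136X (standard error 0.188, adjusted p = 0.124) and -0.55 in R58Q (standard error 0.225, adjusted p = 0.114; edgeR). ASB13 (ENSG00000196372.13, chr10:5638867-5666595), a SOCS-box protein that serves as the substrate adaptor of a ubiquitin ligase, had 14.9, 9.72 and 9.51 CPM in vector, 12.4, 7.38 and 7.58 CPM in S136X and 12.4, 6.92 and 7.10 CPM in R58Q, again in the order of replicates 1 to 3. Here replicate 1 was the highest library of each group. The log2 fold change was -0.32 in S136X (standard error 0.242, adjusted p = 0.438) and -0.37 in R58Q (standard error 0.261, adjusted p = 0.338; edgeR).

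Compared within a replicate number, both genes were lower in every mutant library than in its vector counterpart. The log2 ratios were -0.50, -0.56 and -0.47 for MYBL1 and -0.27, -0.40 and -0.33 for ASB13 in S136X. In R58Q they were -0.72, -0.57 and -0.43 for MYBL1 and -0.27, -0.49 and -0.42 for ASB13. The tests above used no pairing. A further fit treated the replicate numbers as pairing the libraries and took the number as a block. Its edgeR adjusted p was 0.0005 in each mutant for MYBL1, and 0.0324 in S136X and 0.0137 in R58Q for ASB13. The blocked log2 fold changes of MYBL1 (-0.51 and -0.57) and ASB13 (-0.33 and -0.39) were under 1.5-fold. With the block, 7 of the 8 tested markers had an adjusted p under 0.05 in each mutant, against 24.7% of all tested genes in S136X and 35.2% in R58Q, SERPINA9 being the one that did not.

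**Figure D2:**
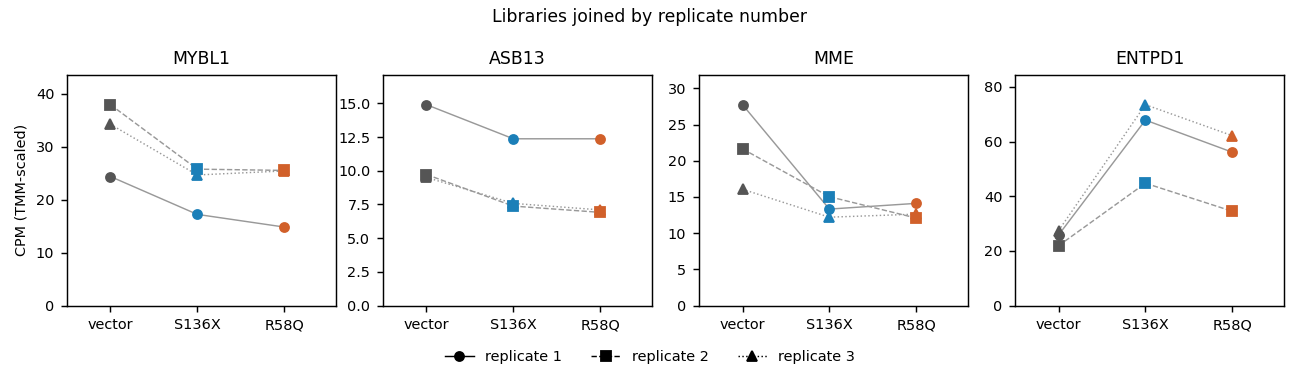
Level of MYBL1, ASB13, MME and ENTPD1 (y axis, CPM with TMM scaling) in the 3 groups (x axis), with libraries of the same replicate number joined by a line. MYBL1 and ASB13 are lower in each mutant than in vector along every line although the groups overlap, whereas the MME lines start apart in vector (16.1 to 27.8 CPM) and meet in the mutants.

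Counted by class, 4 of the 5 tested GCB markers had a fitted change below 0 in each mutant and SERPINA9 one above 0. The median log2 fold change of the 5 was -0.45 in S136X and -0.44 in R58Q, beside -0.02 and -0.03 over all genes tested. Of the 3 tested ABC markers, CYB5R2 and ENTPD1 rose and LIMD1 was lower, with medians of 1.24 and 1.02. Without the fold threshold, 5 of the 8 markers (CYB5R2, ENTPD1, LIMD1, ITPKB and MME) had an adjusted p under 0.05 in each mutant, against 10.1% of all tested genes in S136X and 21% in R58Q. These are also the 5 markers whose mutant and vector libraries did not overlap, which was the case for 31.3% of all tested genes in S136X and 40.3% in R58Q. In bulk RNA, fewer cells with a transcript and less of it per cell cannot be told apart.

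**Figure D3:**
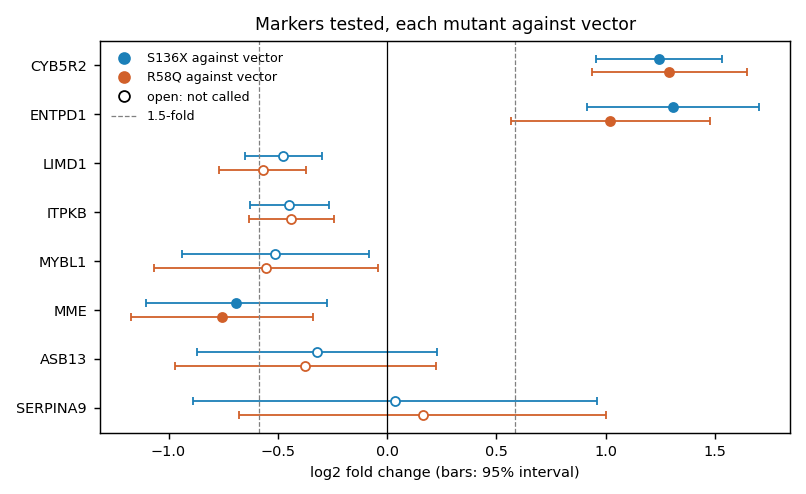
Log2 fold change against vector (x axis) of the 8 markers tested (y axis), with 95% intervals from edgeR; filled points were called, open points were not, and dashed lines mark 1.5-fold. CYB5R2 and ENTPD1 lie at 1.02 to 1.31, MME at -0.69 and -0.75, and the intervals of LIMD1 and ITPKB lie below 0 while their estimates stop short of 1.5-fold.

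Between R58Q and S136X, 7 markers could be tested and 0 were called (edgeR, with 0 at an unadjusted p under 0.05; DESeq2 and limma-voom also called 0), against 0.434% of all tested genes. The log2 fold change of R58Q against S136X was 0.04 for CYB5R2 (95% interval -0.41 to 0.49), -0.07 for MME (-0.33 to 0.19) and -0.10 for LIMD1 (-0.28 to 0.08). For ITPKB the interval was -0.22 to 0.22, and for MYBL1 and ASB13 it was wider, -0.59 to 0.49 and -0.71 to 0.59. Differences of 1.5-fold are thus outside the intervals of CYB5R2, MME, LIMD1 and ITPKB, and inside those of MYBL1 (lower in R58Q) and ASB13. ENTPD1 had a log2 fold change of -0.29 (standard error 0.244, 95% interval -0.86 to 0.27, adjusted p = 0.777; edgeR). With the replicate block it was -0.30 with an edgeR adjusted p of 0.000266, in a fit where 14.6% of all tested genes had an adjusted p under 0.05. R58Q was below S136X in each of the 3 replicate numbers (log2 ratios -0.27, -0.38 and -0.24). This difference stayed under 1.5-fold, and the column date separates the 2 groups.

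Of markers of other cells, the summed level of 3 plasma-cell genes (SDC1, TNFRSF17, MZB1; all 3 detected) was 184.7 to 204.5 CPM in vector, 144.4 to 164.8 CPM in S136X and 134.9 to 164.7 CPM in R58Q, without overlap between mutant and vector. Most of it was MZB1 (mean 165 CPM in vector), at log2 fold changes of -0.32 in each mutant (edgeR adjusted p = 0.0294 and 0.036). TNFRSF17 was at -0.86 and -0.54 (edgeR adjusted p = 0.00712 and 0.0138). SDC1 overlapped between mutant and vector (-0.22 and -0.28, edgeR adjusted p = 0.335 and 0.155). The 3 stromal genes (COL1A1, COL1A2, PDGFRB; all 3 detected) summed to 6.08 to 9.23 CPM in vector, 12.4 to 18.2 CPM in S136X and 12.7 to 18.8 CPM in R58Q. The higher sum came from COL1A1 alone, which rose by 1.65 on the log2 scale in S136X (adjusted p = 0.00648) and by 1.77 in R58Q (adjusted p = 0.00263, edgeR). COL1A2 was at -0.56 and -1.25 (adjusted p = 0.451 and 0.0928 in edgeR, 0.0344 and 0.000982 with the replicate block), and PDGFRB at -0.07 and 0.07. The part of these genes in the marker changes was not tested. The 5 T-cell genes summed to at most 6.65 CPM, nearly all from CD8A, with CD3D at 0 in both mutants, and the 5 myeloid genes to at most 0.589 CPM. Of the 3 endothelial genes VWF and CDH5 were at 0 in every group, and PECAM1, which B cells also express, stood at 17.2 to 19.2 CPM in vector, 7.72 to 14.4 CPM in S136X and 11.2 to 16.8 CPM in R58Q, without overlap between mutant and vector (log2 fold change -0.75 and -0.45, edgeR adjusted p = 0.0442 and 0.0687). Its part was not tested either.

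Other genes tied to cell of origin give the setting. Of 14 further GCB-associated genes 13 were tested, and 3 were called in each mutant, beside 3.87% of all tested genes in S136X and 7.63% in R58Q. BCL6, the master repressor of the germinal centre, rose in both (by 0.97 on the log2 scale in S136X and by 0.99 in R58Q, adjusted p = 0.00162 and 0.00193 in edgeR). The gene is rearranged in RIVA by the study's account, and the part of that in its rise was not tested. DENND3, a Rab guanine nucleotide exchange factor, rose in both too (1.04 and 1.55, adjusted p = 0.0259 and 0.00972 in edgeR). The third was lower, VPREB3 in S136X and SSBP2 in R58Q. SSBP2 had nearly equal values in both mutants, -0.74 in S136X (edgeR adjusted p = 0.0568, and 7.2e-05 with the replicate block, where it was called) and -0.75 in R58Q (adjusted p = 0.0289). VPREB3 was at -0.62 in S136X (adjusted p = 0.00846) and -0.19 in R58Q (adjusted p = 0.252), and the difference between the mutants was 0.43 (R58Q against S136X, edgeR adjusted p = 0.308, and 5.95e-06 with the block). The median of the 13 genes was 0.10 in S136X and 0.01 in R58Q.

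Of 20 further ABC-associated genes, all tested, 4 were called in both mutants, all higher. In each mutant alone the 4 were also the number called higher, beside 2.05% of all tested genes in S136X and 4.09% in R58Q. These were IRF4, the plasmablast transcription factor (0.67 in S136X and 0.76 in R58Q, adjusted p = 0.00153 and 0.00157 in edgeR), BATF, its AP-1 partner (0.99 and 0.95, adjusted p = 0.0118 and 0.0119 in edgeR), the survival kinase PIM2 (0.93 and 0.67, adjusted p = 0.0155 and 0.0255 in edgeR) and the small GTPase RAB29 (0.93 and 0.91, adjusted p = 0.00216 and 0.00408 in edgeR). In R58Q ETV6 also fell (-0.75). On p alone, 6 of the 20 were higher and 4 were lower in both mutants. The higher ones were the 4 called genes with FOXP1 and BCL2, and the lower ones were TNFRSF13B, CREB3L2, ETV6 and BLNK. Taken by mutant, 10 of the 20 passed on p in S136X and 14 in R58Q, beside 10.1% and 21% of all tested genes. The list as a whole was centred near 0, with medians of 0.07 and -0.06. The 5 genes used as references in such panels were R3HDM1, WDR55, ISY1, UBXN4 and TRIM56. Their log2 fold changes were -0.04 to 0.06 in S136X and -0.11 to 0.17 in R58Q. Of these 0 were called (edgeR without a block, with 0 at an unadjusted p under 0.05). Once edgeR was blocked on the replicate number, 0 passed on p in S136X. TRIM56 then passed in R58Q (0.16, edgeR adjusted p = 0.0418). R3HDM1 (-0.15, adjusted p = 0.0216) and TRIM56 (0.19, adjusted p = 0.0035) passed in R58Q against S136X in the blocked edgeR fit. All of these changes stayed under 1.5-fold. None of these lists had a gene called between R58Q and S136X (edgeR, with 1 GCB-associated, 6 ABC-associated and 1 reference gene at an unadjusted p under 0.05).

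**Figure D4:**
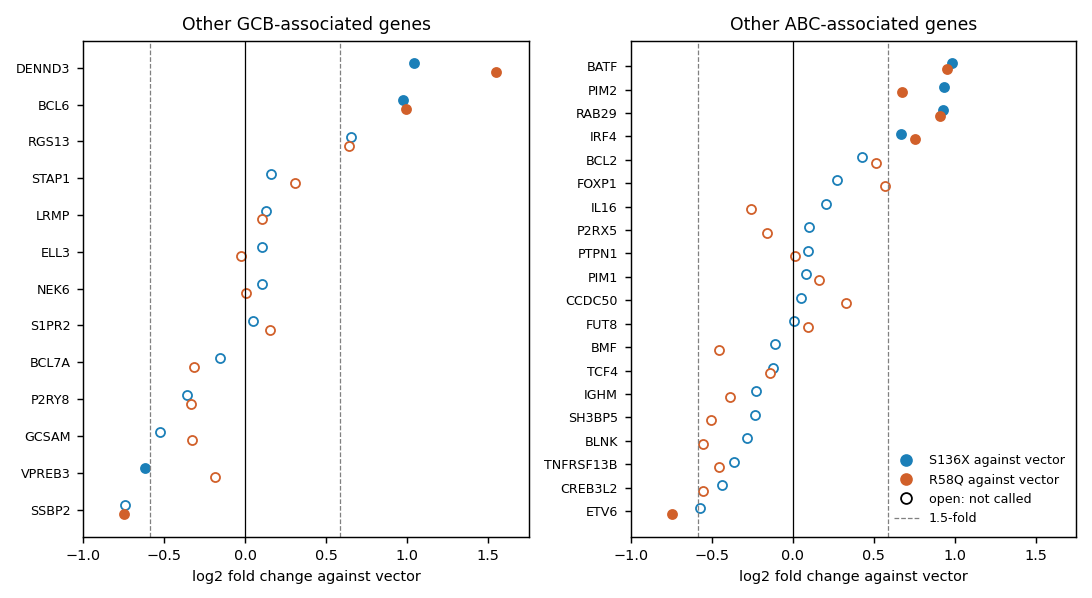
Log2 fold change against vector (x axis) of further GCB-associated (left) and ABC-associated genes (right), S136X in blue and R58Q in orange; filled points were called and dashed lines mark 1.5-fold. BCL6 and DENND3 stand to the right on the GCB side and BATF, PIM2, RAB29 and IRF4 on the ABC side, while most other genes lie within 1.5-fold of vector.

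Genes with a pattern like the called markers were sought over the 9 libraries, as the root mean square difference in log2 CPM centred on the vector mean, among 15860 genes. Nearest to CYB5R2 were ASB2 (0.119) and CKB (0.141). ENTPD1 was nearest to NOTCH2 (0.154) and BTBD19 (0.167), with means of 67.6 and 16.95 CPM in vector and 154.2 and 36.9 CPM in S136X. MME was nearest to ROBO2 (0.141) and RBM38 (0.146). CYB5R2 and ENTPD1 differed from each other by 0.216, with 11 genes closer to CYB5R2 and 8 closer to ENTPD1, whereas the marker nearest to MME was LIMD1 at 0.208, with 47 genes closer. The libraries share the replicate structure described above, which enters this measure.

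The promoters of the 3 called markers are shown because these genes moved in both mutants, and they differ widely in CpG content. RefSeq entries on GRCh38.p14 were found for 6 of the 10 markers, and each sequence is the 250 bases before the RefSeq start, 5' to 3' on the gene's strand with CpG pairs in capitals. Which start RIVA cells use was not measured, and all 3 windows lie within the gene interval of the count table, where other transcripts begin further upstream.
CYB5R2 (chr11:7673501-7673750, minus strand): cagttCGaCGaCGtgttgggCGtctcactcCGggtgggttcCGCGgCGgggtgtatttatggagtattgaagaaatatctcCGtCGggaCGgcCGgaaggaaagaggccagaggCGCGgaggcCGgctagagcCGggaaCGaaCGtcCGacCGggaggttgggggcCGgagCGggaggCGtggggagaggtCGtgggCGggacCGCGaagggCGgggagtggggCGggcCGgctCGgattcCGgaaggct
ENTPD1 (chr10:95755913-95756162, plus strand): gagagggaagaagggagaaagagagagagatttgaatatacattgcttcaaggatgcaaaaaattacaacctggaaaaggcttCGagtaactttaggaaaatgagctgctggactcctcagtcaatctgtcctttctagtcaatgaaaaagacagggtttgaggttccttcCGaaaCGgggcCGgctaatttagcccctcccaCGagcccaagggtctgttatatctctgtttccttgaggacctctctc
MME (chr3:155079422-155079671, plus strand): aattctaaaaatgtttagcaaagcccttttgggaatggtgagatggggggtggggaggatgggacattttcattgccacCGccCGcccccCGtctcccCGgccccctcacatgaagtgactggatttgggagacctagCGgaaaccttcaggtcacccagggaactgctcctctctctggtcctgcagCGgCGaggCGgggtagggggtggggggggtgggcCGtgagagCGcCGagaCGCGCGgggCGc
The CYB5R2 window holds 32 CpG pairs with 68.4% G+C, that of MME 15 with 63.2% and that of ENTPD1 5 with 45.6%, beside a median of 11 over 27305 promoters of the same length. The 2 markers that rose thus stand on either side of this median. Both strands were searched for the NF-kB consensus and the AP-1 site TGANTCA. Each was found in 0 of the 6 marker promoters, against 5.05% and 6.6% of all promoters, and this says only that these letters are absent from these windows.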

How the data were processed

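RNA from doxycycline-induced RIVA cells was polyA-selected and sequenced as single-end reads in 2 runs that were combined. Per the submitters' processing notes, reads were handled with cutadapt, STAR and Picard on hg38. The counting program, annotation and use of strand are not given in the sources used here. The authors deposited read counts per gene for 9 libraries and, beside them, a normalized signal equal to the counts divided by 1 factor per library, which was not used. Of the gene identifiers 96.3% are in GENCODE release 29, and for 99.9% of those the positions overlap. Rows without a gene numbered 0. Between replicates, counts differed beyond sampling error (7.82 to 24.3 times the chi-square's degrees of freedom), and each library entered as 1 sample. The study calls them biologic replicates. Of the B-cell marker list, 1 gene is not reported here.

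The counts were tested with edgeR 4.0.16 (R 4.3.3). Each pair of groups (6 libraries) was fitted alone with filterByExpr, TMM normalization, the quasi-likelihood test and Benjamini-Hochberg adjustment over all genes tested. The markers and lists were chosen with earlier results of these data known. The text names all 10 markers, context genes called in both mutants or in the direct comparison, and the 2 nearest genes of each called marker. Other genes called in a single mutant and the genes past the threshold on p alone were named after their values were seen. Alternatives were DESeq2 1.42.0, limma-voom (limma 3.58.1), upper-quartile and total-count scaling, the low-count filter removed or raised to 10 in each library, a joint fit of the 9 libraries, a block on the replicate number, other thresholds and each replicate left out. Omitting replicate 1 from both groups together was an alternative added after seeing the data.

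Replicates carry the numbers 1 to 3 in the labels. For each pair of libraries in different groups, the deviations from their group means were correlated. Equal numbers gave positive values in all 9 pairs (0.143 to 0.626, median 0.425), and different numbers gave -0.4585 to 0.169 (median -0.251). The ranges overlapped, and the lowest equal-number values were those of vector replicate 2 (0.143 with S136X and 0.163 with R58Q). Deviations cancel out within a group, so the negative median is not separate support. The numbers were treated as pairing the libraries in the blocked fit only, and the main tests, standard errors and intervals used no pairing. For R58Q, such pairs join columns that carry different dates. Tested on simulated counts with genes changed 2-fold, edgeR called 74.9% of those tested for S136X against vector, 76.7% for R58Q against vector and 68.0% for R58Q against S136X. In the same order, 9, 4 and 14 unchanged genes were called. The simulated libraries were drawn independently, without an effect shared by replicate number. These shares therefore do not describe changes smaller than 2-fold or the blocked fit.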

Additional observations from a re-analysis of the deposited data

Results flagged for a closer look

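ENTPD1 was set apart because its effect differed between the mutants when the difference itself was tested with the replicate number as a block. R58Q was lower than S136X by a log2 fold change of -0.30 (edgeR adjusted p = 0.000266), in 3 of 3 replicate numbers, while without the block the adjusted p was 0.777. With the block, 1 of the 7 tested markers had an adjusted p under 0.05, close to the 14.6% of all tested genes. The count is therefore not particular to the markers. The column date separates R58Q from S136X, and date and construct cannot be told apart. Groups of 3 libraries are too small for the test of single outlying libraries.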

How the results depend on the processing

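The calls of CYB5R2 in both mutants and of ENTPD1 in S136X held in all 15 alternatives with a value for each, and the adjusted p of CYB5R2 was at most 0.0127. The number of markers called against vector was 3 in each mutant. It was 5 in each without a fold threshold, and 1 in R58Q at an adjusted p under 0.01. With each replicate left out it ranged from 2 to 3 in S136X and from 2 to 4 in R58Q, and from 0 to 0 in R58Q against S136X. Leaving out replicate 1 of both groups gave MME a log2 fold change of -0.45 in S136X (edgeR adjusted p = 0.107). MYBL1 in S136X was called without vector replicate 1 (-0.67, edgeR adjusted p = 0.0492), and LIMD1 in R58Q without vector replicate 2 or 3 or R58Q replicate 1 (-0.59, -0.61 and -0.63). The sign changed for SERPINA9 and for 5 markers in R58Q against S136X, none of them called. SERPINA9 in S136X was -0.013 with total counts and -0.32 to 0.27 with a replicate left out, and in R58Q -0.11 to 0.32. In R58Q against S136X, ITPKB was -0.0024 with DESeq2, -0.00063 with limma-voom, -0.018 with upper-quartile scaling and -0.00061 with the replicate block, and MYBL1 was 0.0073 without replicate 1 of both groups. With a replicate left out there, MYBL1 ranged from -0.21 to 0.17, MME from -0.14 to 0.013, ITPKB from -0.052 to 0.074, ASB13 from -0.38 to 0.22 and CYB5R2 from -0.099 to 0.22. The cause was not tested.

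The genes called over all genes numbered 601, 1178 and 66 for S136X against vector, R58Q against vector and R58Q against S136X. With the replicate block they were 1014, 1646 and 446, with no fold threshold 1574, 3243 and 81, at 2-fold 243, 526 and 39, and at an adjusted p under 0.01 they were 262, 596 and 15. With a replicate left out they ranged from 279 (without vector replicate 2) to 705, from 719 (without vector replicate 2) to 1248 and from 5 (without S136X replicate 3) to 63. No filter gave 934 in S136X and 165 in the direct comparison, where DESeq2 gave 146 and all 9 libraries in one fit 114, and leaving out replicate 1 of both groups gave 30. Scaling by total counts moved the share of higher genes among those called from 53.1% to 41.1% in S136X and from 53.7% to 42.6% in R58Q. The context genes called against vector were 7 in S136X and 8 in R58Q, and with no fold threshold 13 and 18. At 2-fold they were 1 and 1, and at an adjusted p under 0.01 they were 4 and 5. The depth limits LMO2, SERPINA9 and CCND2, for which a change of 1.5-fold was not detectable. The block changed no call of a marker. With it, MYBL1 and ASB13 against vector and ENTPD1 between the mutants passed on p but stayed under 1.5-fold.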
